A study of Mus musculus with 6 samples.

Results

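The 10 genes described here belong to the routes by which interleukin-6 (IL-6), its relatives, leptin and interleukin-1 (IL-1) act on the liver. They encode receptors, a kinase, nuclear factors and the feedback inhibitor SOCS3. They are Il6ra, Il6st, Osmr, Lifr, Lepr, Il1r1, Jak2, Stat3, Cebpd and Socs3, found by their GENCODE M21 symbols among the 55385 genes of the count table, and all 10 had enough reads to be tested. Livers came from wild-type C57BL/6 male mice that began a high-fat diet (HFD) at 6 to 8 weeks of age and ate it for 10 weeks. The mice then had a vertical sleeve gastrectomy (VSG, which leaves a narrow gastric tube) or a sham operation and stayed on HFD for 12 weeks more. Poly(A) RNA was sequenced from 3 livers per group, 1 animal per library, with 22804397 to 24191778 counted reads each. The sham libraries are numbered 1 to 3 and the VSG libraries 4 to 6. The feeding state of these animals at sampling is not given in the sources used here.

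In this pathway IL-6 binds the receptor chain IL6RA and then the shared chain gp130 (Il6st), which also serves oncostatin M and leukemia inhibitory factor (LIF) through their own chains OSMR and LIFR. Receptor-bound JAK kinases then phosphorylate STAT3, which enters the nucleus and, in hepatocytes, drives the genes of the acute phase response. The leptin receptor signals through JAK2 and STAT3 as well. IL-1 takes a separate route to NF-kB and adds to the acute phase response, C/EBP delta is a transcription factor that cytokines can induce, and SOCS3 is a STAT3 target whose product blocks gp130 and the leptin receptor.

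Promoters of Socs3 and Stat3, the feedback inhibitor and the factor it restrains, are shown because both genes rose after VSG and because STAT factors bind sequences of the form TTCNNNGAA. Each window runs from 250 bases before to 50 bases after a RefSeq transcript start (GRCm38.p6). Both lie on the minus strand of chromosome 11, Socs3 at chr11:117969317-117969616 and Stat3 at chr11:100939491-100939790. Capitals mark a match to TTCNNNGAA, a motif that reads the same on both strands.
Socs3: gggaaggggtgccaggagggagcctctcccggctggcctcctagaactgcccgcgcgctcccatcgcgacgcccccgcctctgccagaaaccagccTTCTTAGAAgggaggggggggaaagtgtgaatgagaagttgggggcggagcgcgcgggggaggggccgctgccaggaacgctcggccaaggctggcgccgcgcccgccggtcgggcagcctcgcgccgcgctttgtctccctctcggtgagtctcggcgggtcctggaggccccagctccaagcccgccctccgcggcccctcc
Stat3: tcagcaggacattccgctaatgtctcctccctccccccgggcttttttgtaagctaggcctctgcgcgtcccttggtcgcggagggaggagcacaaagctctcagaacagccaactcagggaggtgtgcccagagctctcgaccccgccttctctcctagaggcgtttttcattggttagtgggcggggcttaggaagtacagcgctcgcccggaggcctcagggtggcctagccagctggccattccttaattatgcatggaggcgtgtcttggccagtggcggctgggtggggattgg
The Socs3 window held 1 match, at positions -154 to -146 from the start, and the Stat3 window held no match to these letters. The start used for Socs3 lies inside the GENCODE gene, whose outer end is at 117970047. RefSeq windows were found for 9 of the 10 genes (12 windows in all, none for Cebpd), and the one in Socs3 was the only match among them. Of all 32851 promoter windows of this length, 8.3% held the motif. A match is a description of the sequence and shows no binding.

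Higher levels after VSG were found for Il1r1, Socs3, Osmr, Stat3 and Il6st, with fold changes from 1.52 to 6.38. No member was called lower. At an adjusted p under 0.05 (edgeR quasi-likelihood test, adjusted over all 14454 genes tested), 5 of 10 members were called, all as higher, where 14.7% of all genes tested were called, 6.79% as higher and 7.87% as lower. At an unadjusted p under 0.05, 7 members were higher and 0 lower, where 33.9% of all genes tested passed, 16.9% as higher and 17% as lower. DESeq2 called 5 members higher and 0 lower, where it called 22.8% of all genes with an adjusted p, 10.5% as higher and 12.3% as lower. The groups did not overlap in 5 members, against 39.7% of all genes tested. The median log2 fold change was 0.82 over the 10 members and 0.03 over all genes tested. Leaving out sham replicate 3 left 0 calls, leaving out VSG replicate 6 left 1 (Stat3), and leaving out sham replicate 1 or sham replicate 2 left 3 each. The share of all genes called in these fits was 1.07%, 1.42%, 8.19% and 5.34%. The number of members at an unadjusted p under 0.05 was then 5, 6, 5 and 6. At either threshold 0 members were lower in these fits.

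**Figure D1:**
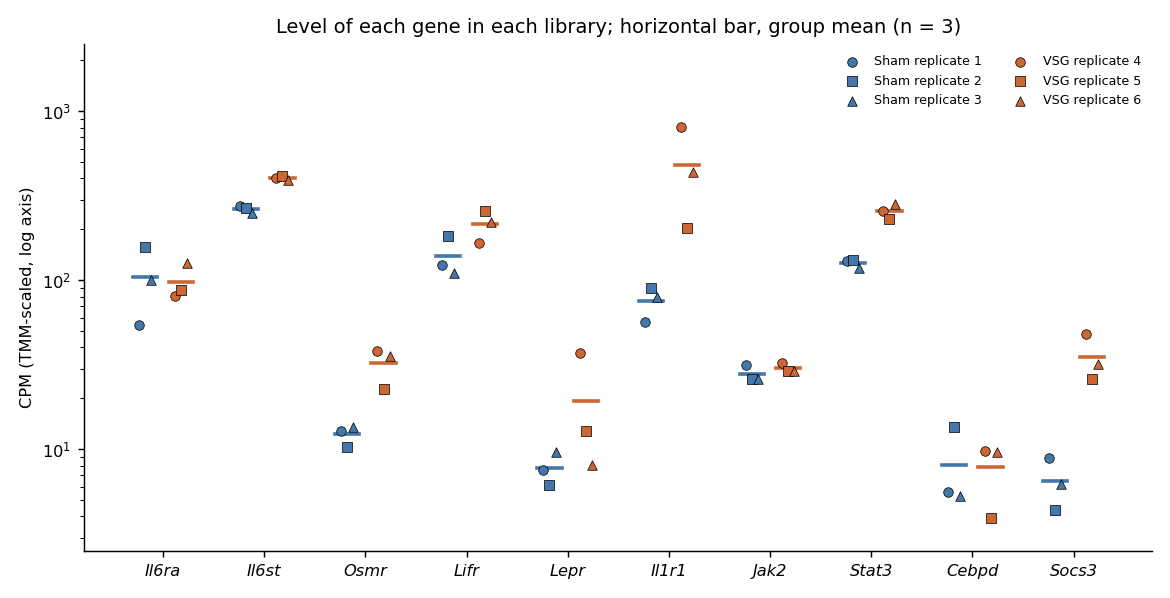
Level of each of the 10 genes in each of the 6 libraries, in CPM (counts scaled to library size) on a log axis, with blue points for sham, orange points for VSG and a horizontal bar at each group mean. VSG and sham points are apart for Il6st, Osmr, Il1r1, Stat3 and Socs3, and they overlap for the remaining 5 genes.

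The IL-6 receptor chain itself was not called, while its partner gp130 was higher. Values per library are given in CPM and group values as mean ± SD (n = 3). Il6ra (chromosome 3, 89864059 to 89913196, minus strand) was at 54.1, 157 and 101 CPM in the sham libraries and at 81.2, 87.7 and 126 CPM in the VSG libraries. The VSG values lay within the range of the sham values, which was widest between sham replicates 1 and 2. The log2 fold change was -0.08 (SE 0.376, adjusted p 0.894), and it was 0.34 without sham replicate 2 and 0.038 without VSG replicate 4.

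Il6st (chromosome 13, 112464070 to 112510086, plus strand) was at 273, 269 and 250.1 CPM in sham and at 403, 413 and 391 CPM in VSG livers. The 3 libraries of each group were close together, and the lowest VSG library was well above the highest sham library. The rise was 1.52-fold (log2 fold change 0.61, SE 0.114, adjusted p 0.0218). The log2 fold change stayed between 0.47 and 0.63 over 11 alternatives, and the adjusted p was above 0.05 in 5 of them, with a highest value of 0.120 without sham replicate 3. Among these was the scaling by total counts (adjusted p 0.0761), under which the median log2 fold change of all genes was -0.11.

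The oncostatin M receptor rose by more than gp130. Osmr (chromosome 15, 6813577 to 6874969, minus strand) was at 12.8, 10.4 and 13.5 CPM in sham and at 38.2, 22.6 and 35.6 CPM in VSG livers. Even VSG replicate 5, the lowest of the group, was above all sham libraries. The difference was 2.63-fold (log2 fold change 1.39, SE 0.218, adjusted p 0.0150). Dropping sham replicate 3 or VSG replicate 6 took the adjusted p to 0.0699 or 0.0671.

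Lifr lies next to Osmr on chromosome 15 (7090614 to 7197489, plus strand) and encodes the LIF receptor chain. It was at 124, 184 and 110.2 CPM in sham and at 166, 256 and 220.5 CPM in VSG livers. VSG replicate 4 was lower than sham replicate 2, so the groups overlapped. The adjusted p was 0.125 for a log2 fold change of 0.62 (SE 0.243), which passed the threshold in none of the 11 alternatives, where it ran from 0.46 to 0.87. Its estimate was close to that of Il6st, with a larger standard error.

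The leptin receptor was raised in 1 of 3 VSG livers far more than in the others. Lepr (chromosome 4, 101717404 to 101815352, plus strand) was at 7.57, 6.12 and 9.61 CPM in sham and at 37.2, 12.9 and 8.11 CPM in VSG livers. VSG replicate 4 was high, VSG replicate 5 was above the sham range and VSG replicate 6 lay within it. The log2 fold change was 1.32 (SE 0.547, adjusted p 0.144) with all libraries and 0.43 without VSG replicate 4. It did not pass the threshold in any of the 11 alternatives, where the lowest adjusted p was 0.0580. Counts were summed per gene, so the long signalling form of the receptor and its short forms were not separated.

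Leprot, whose product lowers the amount of leptin receptor at the cell surface, averaged 17.2 ± 3.83 CPM in the sham group and 17.0 ± 2.78 CPM in the VSG group (log2 fold change -0.02, SE 0.202, adjusted p 0.960). Lepr and Leprot had no exon base in common in GENCODE M21. The leptin transcript, Lep, had 0 counts in all 6 libraries, which allows up to 3 counts in each.

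Il1r1, the signalling receptor of IL-1, was also higher after VSG. It lies on the plus strand of chromosome 1 (40225080 to 40317257) and was at 56.2, 90.5 and 80.05 CPM in sham and at 801, 205 and 439 CPM in VSG livers. All VSG libraries were above all sham libraries, and the 3 VSG livers were spread widely. The difference was 6.38-fold (log2 fold change 2.67, SE 0.492, adjusted p 0.0212). The call was lost without sham replicate 1, 2 or 3 or without VSG replicate 6 (adjusted p 0.0591, 0.0585, 0.0998 and 0.0742), and the log2 fold change stayed between 2.09 and 3.01. Its estimate and that of Socs3 (log2 fold change 2.44, SE 0.328) were within 1 SE, and their order turned without VSG replicate 4 (2.09 for Il1r1 and 2.14 for Socs3) and without sham replicate 1 (2.49 and 2.73).

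Levels of cell type markers stand here beside the receptors. All 10 neutrophil markers were higher at an adjusted p under 0.05, with a summed level of 2.70 to 13.7 CPM in sham and of 137 to 1602 CPM in VSG livers. The sum was 1602, 137 and 748 CPM in VSG replicates 4, 5 and 6, the order in which Il1r1, Socs3 and Osmr also stood. This order was not particular to neutrophil markers. The sums of the Kupffer cell, cholangiocyte and T and B cell lists stood in it too, and those of the remaining lists did not. The remaining called members stood in other orders, Stat3 with replicate 6 highest and 5 lowest and Il6st with replicate 5 highest and 6 lowest. Each of the 10 neutrophil markers had counts, and among the most defining of them Ly6g was counted 1, 0 and 1 times in the sham and 90, 10 and 47 times in the VSG group. Of 9 Kupffer cell markers, the resident macrophages of the liver, 4 were higher by edgeR and 5 both with DESeq2 and at an unadjusted p under 0.05 (421 to 853 CPM summed in sham, 837 to 2397 CPM in VSG livers). Among 9 stellate cell markers 2 were lower by edgeR, 6 with DESeq2 and 7 at an unadjusted p under 0.05, and the sums did not overlap (727 to 1049 CPM in sham, 401 to 666 CPM in VSG livers). Among cholangiocyte markers 1 of 5 tested, Sox9, was higher (57.7 to 254 CPM summed in sham, 73.7 to 200 CPM in VSG livers). Krt7, Krt19, Epcam and Spp1 went the other way and were not called (log2 fold changes -0.84, -0.76, -1.20 and -0.45). Over all genes tested, 6.79% were higher and 7.87% lower by edgeR. These shares were 10.5% and 12.3% with DESeq2, and 16.9% and 17% at an unadjusted p under 0.05.

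Hepatocyte markers, which check the labelled tissue, summed to 66342 to 111289 CPM in sham and to 49099 to 80953 CPM in VSG livers, and 0 of 9 were called by edgeR (2 lower at an unadjusted p under 0.05, and 2 lower with DESeq2). For 8 sinusoidal endothelial cell markers the sums were 325 to 406 CPM and 319 to 414 CPM, and for 7 T and B cell markers they were 6.95 to 7.39 CPM and 8.04 to 11.3 CPM. In both of these lists 0 markers were called by edgeR or DESeq2, and at an unadjusted p under 0.05 there were 0 and 1. In whole liver, a change in the number of cells of a type and a change in RNA per cell cannot be told apart. The part of these cells in the receptor levels was not tested.

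**Figure D2:**
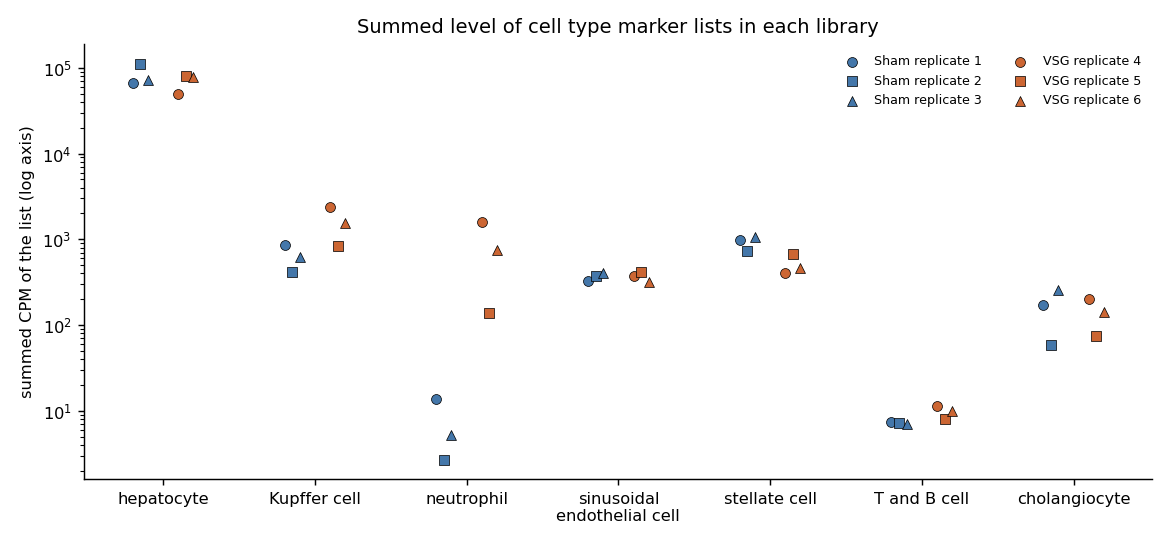
Summed level of 7 lists of cell type markers in each library, in CPM on a log axis, with blue points for sham and orange points for VSG. Neutrophil markers sum to at most 13.7 CPM in sham and to at least 137 CPM in VSG livers, while hepatocyte and sinusoidal endothelial cell lists overlap between the groups.

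The kinase Jak2 was close to level between the groups. Jak2 (chromosome 19, 29251828 to 29313080, plus strand) was at 31.5, 26.1 and 26.02 CPM in sham and at 32.5, 28.9 and 29.1 CPM in VSG livers. The groups overlapped in a narrow range. Its log2 fold change was 0.11 (SE 0.113, adjusted p 0.502), and its sign turned with scaling by total counts (-0.034).

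Stat3, the transcription factor on which the gp130 and leptin receptors converge, doubled with little spread. It lies on the minus strand of chromosome 11 (100885098 to 100939540) and was at 130.4, 131 and 117 CPM in sham and at 256, 231 and 283 CPM in VSG livers. The lowest VSG liver was far above the highest sham liver. The rise was 2.03-fold (log2 fold change 1.02, SE 0.124) with the lowest adjusted p of the 10 genes, 0.00809. The call held in 10 of 11 alternatives and was lost without sham replicate 3 (adjusted p 0.0558). Exons of Stat3 share 72 bases with Stat5a on the other strand, and the strand setting of the count was not stated. Stat5a itself was lower in counts than Stat3, with 348 to 696 counts per library against 2875 to 5939.

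Cebpd (chromosome 16, 15887286 to 15891031, plus strand) was not called. It was at 5.58, 13.5 and 5.28 CPM in sham and at 9.77, 3.93 and 9.68 CPM in VSG livers. Sham replicate 2 was the highest of all 6 libraries and VSG replicate 5 the lowest. The log2 fold change was -0.05 (SE 0.481, adjusted p 0.947), 0.52 without sham replicate 2 and 0.25 without VSG replicate 5. The single exon of Cebpd shares 562 bases with exons of Spidr on the other strand, so its counts, from 92 to 295 per library, are uncertain.

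Socs3, the feedback inhibitor shown above, rose 5.41-fold. It lies on the minus strand of chromosome 11 (117966079 to 117970047) and was at 8.90, 4.39 and 6.19 CPM in sham and at 48.3, 25.9 and 31.7 CPM in VSG livers. Each VSG liver was several times above every sham liver. The log2 fold change was 2.44 (SE 0.328, adjusted p 0.0104). It stayed between 2.14 and 2.73 over 11 alternatives, and dropping sham replicate 3 or VSG replicate 6 took the adjusted p to 0.0641 or 0.0517.

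**Figure D3:**
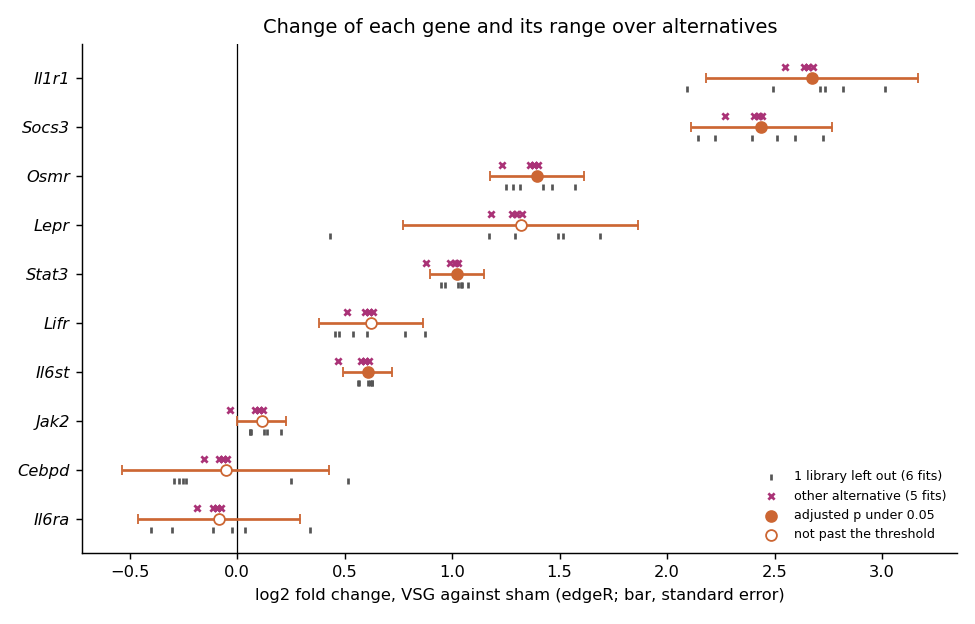
Log2 fold change of VSG against sham livers for each of the 10 genes, with its standard error as a bar and filled circles for an adjusted p under 0.05. Grey ticks are fits without 1 library and crosses are the other alternatives. Estimates run from -0.08 for Il6ra to 2.67 for Il1r1, and the tick of Lepr at 0.43 is the fit without VSG replicate 4.

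Levels of different genes were compared per exon length, in FPKM (CPM per 1000 bases of summed exon). In sham livers Il6st had the highest level of the 10 genes (23.8 ± 1.11 FPKM) and Osmr the lowest (1.01 ± 0.135 FPKM). Stat3, Lifr, Il6ra and Il1r1 followed Il6st between 13.3 and 11.9 FPKM, and each of them overlapped the next in that order. Jak2 was at 5.54 ± 0.618 FPKM, apart from its neighbours on both sides. Socs3 at 2.25 FPKM overlapped Cebpd at 2.17 FPKM, and Lepr at 1.10 FPKM overlapped Osmr.

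After VSG the order differed. Il1r1 had the highest mean (75.7 ± 47.2 FPKM), although its libraries overlapped those of Il6st (36.3 ± 0.989 FPKM). Stat3 followed at 26.9 ± 2.72 FPKM and Lifr at 19.9 ± 4.22 FPKM, the former apart from both neighbours. Socs3, at 12.2 ± 4.03 FPKM, overlapped Lifr above it and Il6ra below it (11.4 ± 2.79 FPKM). Jak2 was at 5.9995 ± 0.407 FPKM, and Lepr (2.75 ± 2.22), Osmr (2.66 ± 0.691) and Cebpd (2.08 ± 0.893 FPKM) overlapped in that order. The summed exon length covers all annotated isoforms, so genes with long unused exons read low on this scale.

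**Figure D4:**
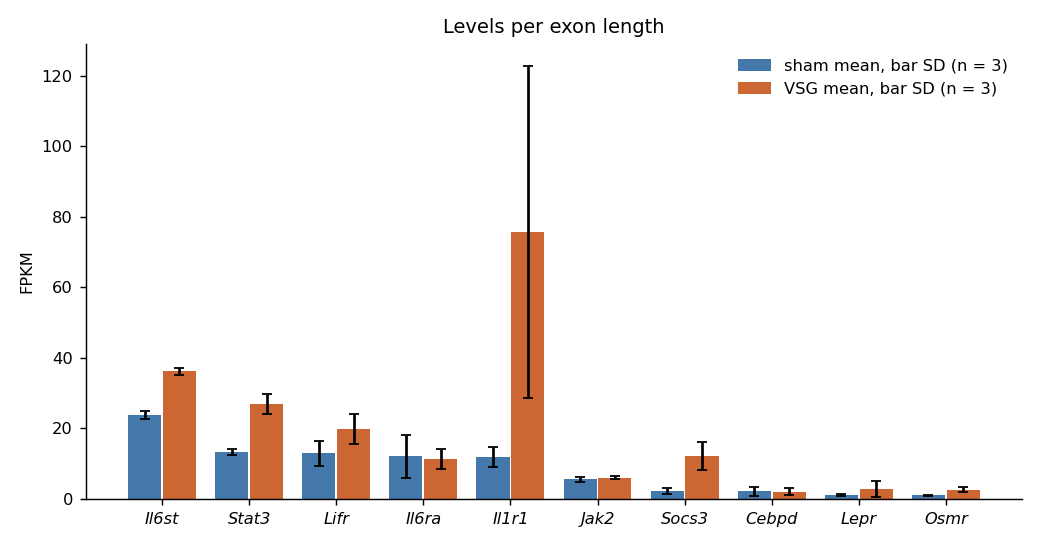
Mean level of each gene in FPKM, in the order of the sham levels, with blue bars for sham, orange bars for VSG and error bars of 1 SD (n = 3). The bar of Il1r1 goes from 11.9 to 75.7 FPKM with a wide error bar, and that of Stat3 from 13.3 to 26.9 FPKM with a narrow one.

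The other genes of these pathways were taken from 7 lists with 111 genes, of which 102 could be tested. Of these 102, 36 were higher and 3 lower, or 38.2%, against 14.7% of all genes tested. Without the list of hepatic STAT3 targets, 14 of 72 genes were called (19.4%). In place of 39, the fits without sham replicates 1, 2 and 3 called 24, 14 and 1 genes, and those without VSG replicates 4, 5 and 6 called 22, 47 and 10. The share of all genes called in those 6 fits was 8.19%, 5.34%, 1.07%, 7.32%, 18.4% and 1.42%. The one gene called in all 11 alternatives was Fgl1.

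Of 13 ligand genes, 6 could be tested and 7 could not. The counts of Il6 were 1, 3 and 0 for the sham and 3, 5 and 1 for the VSG group, at or near the floor of 3 counts. Osm, the ligand of OSMR, was counted 1, 0 and 2 times in the sham and 17, 1 and 15 times in the VSG group and was not tested. Il6, Osm, Lep and Leprot are named after their values were seen. Il1b, an IL-1 ligand made by myeloid cells, was higher, with 13.7 ± 4.95 CPM against 3.64 ± 1.81 CPM in sham livers (log2 fold change 1.90, SE 0.417, adjusted p 0.0314). Ctf1, which encodes the gp130 ligand cardiotrophin-1, was lower, with 2.88 ± 0.456 CPM against 5.49 ± 0.538 CPM in sham livers (log2 fold change -0.93, SE 0.190, adjusted p 0.0268). For Il1b and Ctf1 the call held in 7 of 11 alternatives. Il1rn, also named after its values were seen, encodes the antagonist of the IL-1 receptor and was at 28.7, 15.9 and 18.5 CPM in sham and at 324, 30.1 and 136 CPM in VSG livers. The groups did not overlap, but the spread between VSG livers was wide and with a log2 fold change of 2.96 (SE 0.786) the adjusted p was 0.0506. It was called in 4 of 11 alternatives, which were DESeq2, total counts, no filter on low counts and the fit without VSG replicate 5, and its log2 fold change ran from 1.98 to 3.42 over the 11.

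Among 13 tested genes of other receptor chains and receptor processing, 1 was higher and 0 lower by edgeR (2 higher and 0 lower with DESeq2, 3 higher and 0 lower at an unadjusted p under 0.05). The share called by edgeR was 7.69%, against 14.7% of all genes tested. DESeq2 called 22.8% of all genes, and 33.9% passed at an unadjusted p under 0.05. The one called was Csf3r, the receptor of the neutrophil growth factor G-CSF, with 23.7 ± 12.9 CPM against 5.95 ± 1.45 CPM in sham livers (log2 fold change 1.99, SE 0.458, adjusted p 0.0346). That call held in 6 of 11 alternatives. Levels of Csf3r in VSG livers were 35.2, 9.75 and 26.3 CPM in replicates 4, 5 and 6. The sums of the neutrophil, Kupffer cell, cholangiocyte and T and B cell markers stood in the same order. Il1rap, the partner chain of IL1R1, was at 119 ± 39.8 and 129 ± 34.5 CPM and did not differ beyond the spread (log2 fold change 0.11, SE 0.281, adjusted p 0.798).

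Of the other JAKs and STATs, 9 were tested and 0 were higher by edgeR, although 2 were with DESeq2 and 3 at an unadjusted p under 0.05. Over all genes tested, 6.79%, 10.5% and 16.9% were higher, in that order. Jak1, the main kinase of gp130, was at 185, 175 and 173 CPM in sham and at 219.5, 219.5 and 218 CPM in VSG livers. The groups did not overlap, but with a log2 fold change of 0.30 (SE 0.0997) it was called by DESeq2 (adjusted p 0.00321) and not by edgeR (0.0852).

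Of 19 inhibitors and adaptors, 4 were higher and 0 lower by edgeR (7 higher and 0 lower with DESeq2, 8 higher and 1 lower at an unadjusted p under 0.05). The share called by edgeR was 21.1%, against 14.7% of all genes tested. Sh2b2, an adaptor of JAK2, was at 4.21 ± 1.33 CPM against 1.84 ± 0.387 CPM in sham livers (log2 fold change 1.19, SE 0.292, adjusted p 0.0413). Ptpn2, a phosphatase that acts on JAKs and STATs, had a log2 fold change of 0.54 (SE 0.137, adjusted p 0.0454). The calls of Sh2b2 and Ptpn2 held in 5 and 4 of 11 alternatives. The SOCS family members Socs4 and Socs6 rose by 0.39 and 0.38 on the log2 scale (adjusted p 0.0343 and 0.0426), and they kept their calls in 4 and 3 of 11 alternatives. These 4 changes were all smaller than the change of Socs3.

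Socs2, Cish and Socs1, also of the SOCS family, differed between the VSG livers themselves. Socs2, a STAT5 target that restrains growth hormone signalling, was at 4.58, 5.62 and 3.65 CPM in sham and at 28.3, 22.4 and 5.58 CPM in VSG livers. Cish, a further STAT5 target, was at 5.91, 5.16 and 3.42 CPM in sham and at 42.7, 19.8 and 5.25 CPM in VSG livers. In both genes VSG replicates 4 and 5 were high and VSG replicate 6 was in the sham range. For Lepr the VSG livers stood in the same order. Its replicate 5 was less far above the sham range, at 12.9 CPM against a highest sham value of 9.61 CPM. Neither Socs2 nor Cish passed the threshold (adjusted p 0.0540 for Socs2 and 0.0735 for Cish), while both did without VSG replicate 6, with DESeq2 and with no filter on low counts. Socs1 was counted 17, 8 and 4 times in the sham and 117, 6 and 17 times in the VSG group (log2 fold change 2.45, SE 1.11, adjusted p 0.171, between 0.46 and 3.03 over 10 alternatives), and a single liver held most of its signal.

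In the route from the IL-1 receptor to NF-kB, 4 of 20 genes were higher and 0 lower by edgeR (6 higher and 0 lower with DESeq2, 6 higher and 0 lower at an unadjusted p under 0.05). The share called by edgeR was 20%, against 14.7% of all genes tested. DESeq2 called 22.8% of all genes, and 33.9% passed at an unadjusted p under 0.05. Nfkbiz, an IkB-like cofactor that IL-1 induces, was at 37.0 ± 10.98 CPM against 14.8 ± 3.07 CPM in sham livers (log2 fold change 1.32, SE 0.257, adjusted p 0.0236). Tab2, an adaptor of the kinase TAK1, was at 117 ± 12.8 CPM against 66.1 ± 7.45 CPM in sham livers (log2 fold change 0.83, SE 0.131, adjusted p 0.0155). For Nfkbiz and Tab2 the call held in 8 and 9 of 11 alternatives. Both the adaptor Myd88 and the inhibitor Nfkbib rose by 0.71 and 0.66 on the log2 scale (adjusted p 0.0495 and 0.0431), and each kept its call in 5 of 11 alternatives. Nfkbia, Rela and Nfkb1, named after their values were seen, were not called (log2 fold changes 0.48, 0.018 and 0.33).

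Of 5 other C/EBP factors, 1 was higher and 1 lower by edgeR (40%, against 14.7% of all genes tested). Cebpg, which pairs with other C/EBP factors, was higher, with 116 ± 9.99 CPM against 67.2 ± 2.06 CPM in sham livers (log2 fold change 0.79, SE 0.101, adjusted p 0.00941). Cebpe, a granulocyte factor, was lower, with 6.43 ± 0.754 CPM against 9.40 ± 0.698 CPM in sham livers (log2 fold change -0.55, SE 0.144, adjusted p 0.0491). That call held in 3 of 11 alternatives. It was lost in each of the 6 fits without 1 library and with both other filters on low counts. The main hepatic forms Cebpa (282 ± 23.1 and 320 ± 59.7 CPM, log2 fold change 0.18, adjusted p 0.480) and Cebpb (77.04 ± 43.8 and 56.3 ± 17.8 CPM, log2 fold change -0.45, adjusted p 0.459) did not differ beyond their spread.

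Genes that STAT3 is known to drive in liver were the list with the most calls. Of 30 such genes, 25 were higher and 0 lower by edgeR (26 higher and 0 lower with DESeq2, 27 higher and 0 lower at an unadjusted p under 0.05), with a median log2 fold change of 2.07 against 0.03 over all genes tested. By edgeR 83.3% of the list were called, against 14.7% of all genes tested. This list holds acute phase genes that were already known to be high in these libraries when it was written, so its count is a description. IL-1 also adds to the acute phase response, and the part of each route in these levels was not tested. The 4 largest estimates were those of Saa2, Saa1, Orm2 and Saa3, all acute phase proteins, which reached 6.54, 5.87, 5.33 and 4.86 on the log2 scale (adjusted p 0.00809, 0.00783, 0.0216 and 0.0121). Saa3 (SE 0.699) was close to Lcn2, an acute phase gene that neutrophils also express, at 4.78 (SE 0.949), and over 11 alternatives Saa3 ran from 4.01 to 5.25 and Lcn2 from 4.08 to 5.27. Saa and Orm genes have near-identical copies, so reads could have been split among them. Pim1 (a kinase), Bcl3 (an IkB family member) and Junb (an AP-1 subunit) rose by 0.86, 1.54 and 0.91 on the log2 scale (adjusted p 0.02004, 0.0291 and 0.0393). These 3 genes are named after their values were seen. The 5 targets that were not called were Timp1, Bcl6, Mcl1, Il4ra and Tnfrsf1a, with log2 fold changes from -0.71 to 0.53.

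Promoter windows were found for 26 of these 30 targets. TTCNNNGAA was found in 8 of their 29 windows (27.6%), against 8.3% of all windows, and the 7 genes with a match were Bcl6, Fga, Fgb, Hamp, Itih4, Steap4 and Tnfrsf1a. The genes were picked as STAT3 targets, so this share describes the list and tells nothing about these livers. Bcl6 and Tnfrsf1a were among the 5 targets that were not called.

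**Figure D5:**
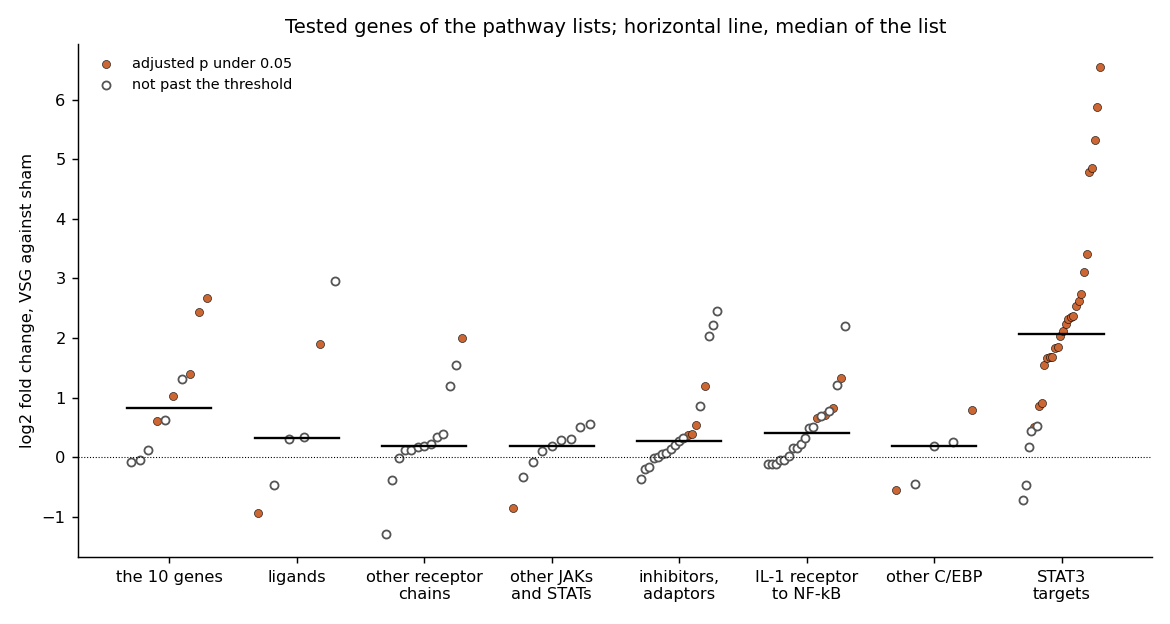
Log2 fold change of VSG against sham livers for each tested gene of the 10 members and the 7 lists, with orange points for an adjusted p under 0.05, open points for other genes and a line at the median of each list. The STAT3 target list has its median at 2.07, and the medians of the other 6 lists lie between 0.18 and 0.41.

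The genes whose levels moved most like those of Stat3 were sought among 9964 tested genes with a mean of at least 5 CPM, by the Pearson correlation of log2 CPM over the 6 libraries. They were Qsox1 (r = 0.9988), Afdn (0.9981) and the STAT3 target Fgl1 (0.9978). Fgl1, which encodes a liver-secreted fibrinogen-like protein, was at 2417 ± 468 CPM against 281 ± 56.9 CPM in sham livers (log2 fold change 3.10, SE 0.257, adjusted p 0.00291). Like Stat3 it was highest in VSG replicate 6 and lowest among VSG livers in replicate 5. For Lepr the most alike were Wdyhv1 (0.9890), Kctd18 (0.9864) and Lgalsl (0.9823), none of which passed the threshold (adjusted p from 0.231 to 0.293). The log2 fold changes of these 3 genes were from 0.23 to 0.29, against 1.32 for Lepr. The 6 points share the difference between the groups, and no p is given for these correlations.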

How the data were processed

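Poly(A) RNA of about 40 mg liver per animal was sequenced in 3 sham and 3 VSG libraries, grouped by the sample titles. The authors made strand-specific libraries, aligned reads to mm10 with STAR 2.6.0 and deposited raw read counts per gene from featureCounts (version 2.0.3 in the submitters' processing notes, a different version in the paper). The annotation release, strand option and treatment of reads that map to several genes are not given in the sources used here. The deposited table also holds the summed exon length of each gene, other than a measurement of a sample, used here for FPKM.

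Gene IDs were matched to GENCODE M21 (55144 of 55385 matched, 54487 of them with the version and the same coordinates). Symbols shared by more than 1 ID (Ddit3) were left out. Low genes were removed by filterByExpr (smallest count 10, smallest total 15) and the rest tested in edgeR 4.0.16 under R 4.3.3 with TMM factors (0.897 to 1.15), glmQLFit and glmQLFTest, group as the only term and Benjamini-Hochberg adjustment over 14454 genes. The standard error is the log2 fold change divided by the square root of F. Replicates of a group differed by more than counting noise (chi-square per degree of freedom at least 27.5), and all were kept. P-values measure the spread between these animals. A floor of 3 counts corresponds to 0.111 to 0.143 CPM and covers counting error only. The fit was tested on simulated data. Alternatives were DESeq2 1.42.0, RLE factors, total counts, keeping every gene with a count, keeping genes with 10 or more counts in each library, and leaving out each library.

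Named genes were the 10 members, up to 4 called genes in each direction per pathway list, Jak1, Socs1, Socs2, Cish, Il1rap, Cebpa and Cebpb, and the 3 genes most like Lepr and Stat3. One named gene is not reported here. Others are named after their values were seen. The members and lists were chosen with earlier results of these data known. Promoter sequences are those of RefSeq (GRCm38.p6).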

Additional observations from a re-analysis of the deposited data

How the results depend on the processing

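No paired analysis was possible because the labels give the 2 groups no shared replicate numbers. The number of members called was 5, and it was 4 or 5 with DESeq2, RLE factors, total counts and both other filters. Leaving out 1 library in turn gave from 0 to 5 called members and from 1 to 47 called genes of the 7 pathway lists, against 39 with all libraries. Over the 10 members and 11 alternatives, 91 of the 110 results kept direction and side of the threshold, 14 kept direction and lost the call, 0 gained a call and 5 changed sign. The sign changes were those of Il6ra (log2 fold change 0.34 when sham replicate 2 was left out, 0.038 when VSG replicate 4 was, lowest value -0.40 over all 6 such fits), Cebpd (0.52 when sham replicate 2 was left out, 0.25 when VSG replicate 5 was, lowest value -0.29) and Jak2 (-0.034 with total counts). The cause was not tested. DESeq2 called 3288 of all genes tested. Leaving out 1 library gave from 159 (no sham replicate 3) to 2732 (no VSG replicate 5) calls over all genes, and 210 without VSG replicate 6, against 2118 with all libraries. Of 13 ligand genes, 7 had too few counts to be tested at this depth.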
